A study of Mus musculus with 3 samples.

Results

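The UDP-glucuronosyltransferase (Ugt) and cytosolic sulfotransferase (Sult) genes were followed in 3 bulk liver RNA libraries from mice, 1 library per group. Members were taken by name, as protein-coding genes of the deposited table whose symbol starts with Ugt1a, Ugt2a, Ugt2b or Ugt3a, or with Sult, followed by a number. They were 38 of the 35275 genes listed, 22026 of which are protein-coding. Of the 38, 20 are Ugt genes (9 Ugt1a, 2 Ugt2a, 7 Ugt2b and 2 Ugt3a) and 18 are Sult genes. All groups were male mice of the C57BL/6J strain, aged 10 weeks at the start of the diets. The control group ate normal chow. The NASH group, named for nonalcoholic steatohepatitis, ate a western diet and drank fructose, received no hormone, and carries 24 weeks in its label. The TH-treated NASH group had the same diet for 16 weeks and then, for a further 8 weeks, the thyroid hormones T3 and T4 at 35 and 7 ng/g in water that held 15% fructose. The labels do not say how many animals a library stands for, or at what age the control mice were sampled. Since each group is 1 library, no difference has a replicate check and no p-value is given. The labels control, NASH and TH-treated NASH stand for these libraries in what follows.

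Both enzyme families attach a charged group to small lipophilic molecules, which makes them water-soluble and ready for export. Ugt enzymes sit in the endoplasmic reticulum and transfer glucuronic acid from UDP-glucuronic acid to bilirubin, bile acids, steroids, thyroid hormones, drugs and phenols. Sult enzymes are cytosolic and transfer a sulfo group from PAPS (3'-phosphoadenosine-5'-phosphosulfate) to an overlapping range of substrates. The liver is the main site of both reactions. Thyroid hormones are themselves substrates of both, and their sulfates are readily deiodinated by the type 1 deiodinase encoded by Dio1. In rodents several members of both families are expressed at different levels in male and female liver.

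The libraries held 54576236 (control), 47009255 (NASH) and 38303410 (TH-treated NASH) fragments on genes. Levels are FPKM, fragments per kilobase of gene after scaling by library total. Comparisons between genes are limited where genes share exons or sequence, and those between libraries depend on the scaling. Folds of single genes are FPKM ratios. The range in brackets after it is an exact 95% interval (Clopper-Pearson, from the fragments), which covers counting error only and not the spread between animals. A member was called when its difference in log2(FPKM + 1) reached 1.5-fold either way, a scale which understates folds of weakly expressed genes. Liver markers were abundant: the 10 hepatocyte markers summed to 69124, 51172 and 45598 FPKM in control, NASH and TH-treated NASH. Alb alone gave 32685, 20265 and 14907 FPKM of these sums. The median difference of the 10 markers was -0.52 in NASH against control and 0.27 in TH-treated NASH against NASH. Of 4 kidney markers none passed 0.0085 FPKM, and the defining intestinal genes Cdx2 and Alpi and pancreatic genes Cpa1 and Ctrb1 had no fragment. Other genes of those lists were present: Fabp2 at 57.9, 220.5 and 73.5 FPKM, Lgals4 at 17.4, 15.5 and 37.3 FPKM, and Cela1 at 17.5, 10.8 and 56.9 FPKM. The 6 Kupffer cell and macrophage markers summed to 65.9, 138 and 224 FPKM and the 6 cholangiocyte markers to 30.8, 102 and 47.2 FPKM; the part of these cells in the values below was not tested. In bulk tissue, fewer cells of a type and less RNA per cell cannot be told apart. Xist stayed at or below 0.0113 FPKM, while Ddx3y lay between 13.4 and 17.3 FPKM, as in male tissue.

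Of the 38 members, 25 reached 1 FPKM in at least 1 library, 15 Ugt and 10 Sult genes, and 13 did not. The count at 1 FPKM or more was 21 in control, 22 in NASH and 25 in the TH-treated library. The weakest member that passed was Sult4a1, with a highest level of 2.83 FPKM, and the strongest that did not was Sult3a1, at 0.648 FPKM. Among the 13 that did not pass, Sult1c1, Sult2a4, Sult2a6, Sult6b1 and Ugt2a1 had no fragment in any library. For these 5 genes, 3 fragments would have stood at 0.0214 to 0.0572 FPKM in control, 0.0248 to 0.0664 in NASH and 0.0305 to 0.0815 in TH-treated NASH. Ugt1a2, Ugt1a7c, Ugt1a8 and Ugt1a10 stayed at or below 0.264 FPKM, Sult2b1 at or below 0.0171, Sult2a3 at or below 0.0774, and Sult2a5 at or below 0.599. The ID listed as Ugt2a1 is named Ugt2a2 in GENCODE M21.

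The balance between the families differed between the libraries. Summed over the 20 Ugt genes, the level was 1508 FPKM in control, 1358 in NASH and 727 in the TH-treated library, 1.87-fold lower in TH-treated NASH than in NASH. Summed over the 18 Sult genes it was 252, 263 and 611 FPKM, 2.32-fold higher in TH-treated NASH than in NASH. The Ugt sum was 5.99 times the Sult sum in control, 5.16 times in NASH and 1.19 times in the TH-treated library. A further sulfotransferase, Sult2a8, which sulfates bile acids in mouse liver, is listed under its older symbol 2810007J24Rik and so is no member by name. It stood at 388 FPKM in control, 228 in NASH and 218 in the TH-treated library, more than any Sult member in the first 2 libraries. With Sult2a8 added (Sult3a2 and Sult6b2, also under older symbols, had no fragment), the Sult sum was 639, 491 and 829 FPKM. It was then 1.69-fold higher in TH-treated NASH than in NASH, 1.30-fold higher than in control, and 1.30-fold lower in NASH than in control. The Ugt sum was then 2.36, 2.77 and 0.877 times the Sult sum.

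**Figure D1:**
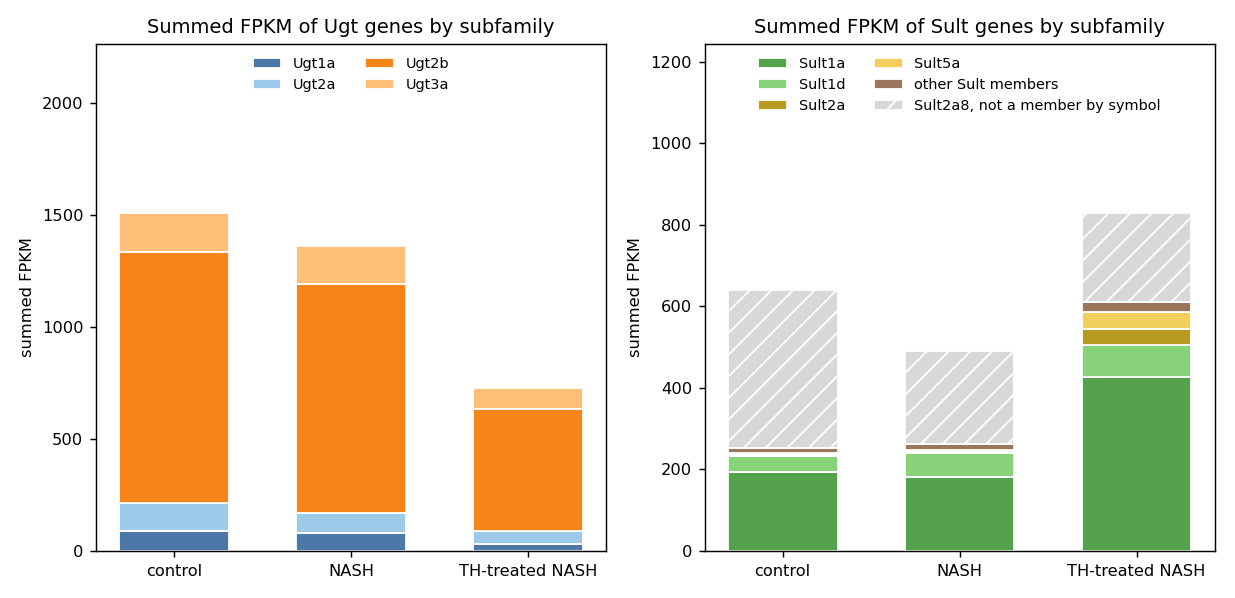
Summed FPKM of the Ugt genes (left) and Sult genes (right) in the 3 libraries, 1 bar per library, coloured by subfamily; the vertical axes start at 0 and differ in scale. The Ugt bar is 727 FPKM in TH-treated NASH against 1358 in NASH, the Sult members reach 611 against 263, and the hatched segment is Sult2a8, listed under an older symbol.

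Few members separated NASH from control. Sult1e1, the estrogen sulfotransferase, was called higher and Ugt2b38 lower. Of the 25 members measured, this is 1 higher, where 10.3% of the 10953 protein-coding genes measured in the same way were called higher, and 1 lower, where 2.15% were called lower. The median difference in log2(FPKM + 1) was -0.04 over the members and 0.13 over all genes. That median of all genes depended on scaling, and was -0.06 with median-of-ratios and -0.03 with TMM scaling. With those scalings the members split into 1 higher and 5 lower, or 1 higher and 3 lower.

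In TH-treated NASH against NASH, the families lay on opposite sides. Of 15 Ugt genes measured, 10 were called lower and 1 higher, and of 10 Sult genes 7 were called higher and 1 lower. The members thus counted 8 higher, against 7.29% of all 10953 genes, and 11 lower, against 8.51%. From 2-fold, 8 were higher, against 2.33% of all genes, and 7 lower, against 2.5%. The median difference in log2(FPKM + 1) was -0.88 over the Ugt genes, 1.94 over the Sult genes and -0.04 over all genes. Sult2a1, Sult2a2 and Sult4a1 reached 1 FPKM in TH-treated NASH alone, so they had to be higher there. The Sult median of 1.94 includes them. Among the 22 members at 1 FPKM or more in control or NASH, 5 were called higher, 4 of them from the 7 Sult genes left. The median of those 7 was the value of Sult1a1, 1.24.

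Against control, TH-treated NASH had 9 members called higher, where 14.9% of all genes were, and 12 lower, where 6.18% were. Among the Ugt genes, 11 were lower and 1 was higher, and the median was -1.25 on the log2(FPKM + 1) scale. Among the Sult genes, 8 were higher and 1 was lower, and the median was 2.33. Of these 8, Sult1e1, Sult2a1, Sult2a2 and Sult4a1 lay below 1 FPKM in control and passed the filter only through the other libraries. Sult2a1, Sult2a2 and Sult4a1 reached 1 FPKM in TH-treated NASH alone, so they had to be higher. Of the 6 Sult genes at 1 FPKM or more in control, 4 were higher and 1 was lower, and the median was 1.02. The 3 comparisons share libraries, and so do not count as separate observations.

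**Figure D2:**
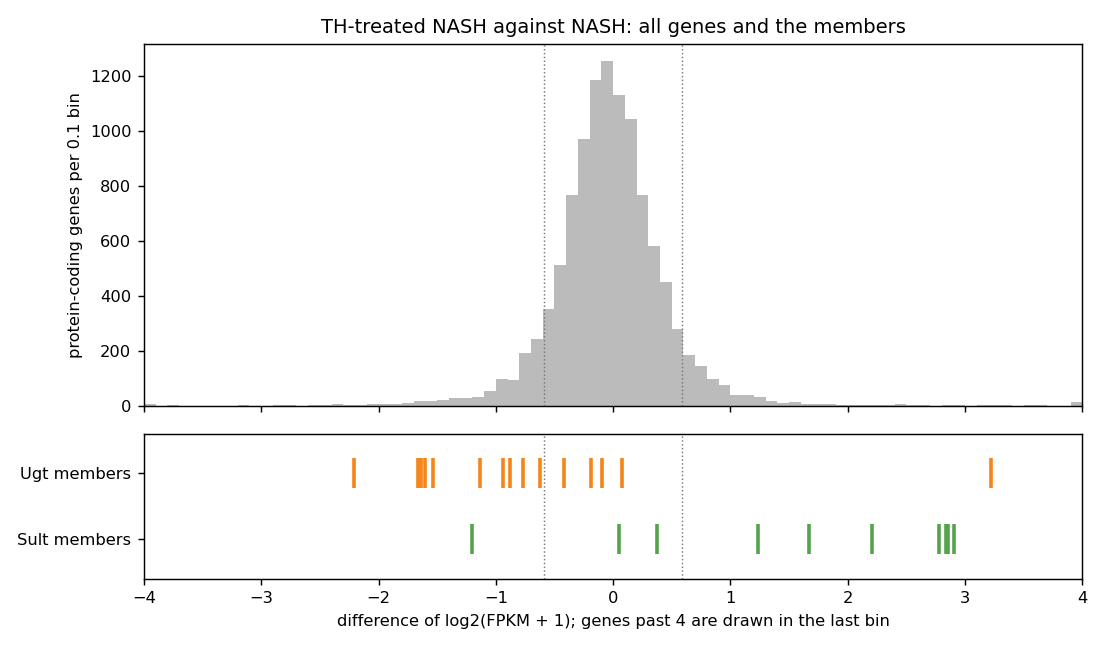
Difference in log2(FPKM + 1), TH-treated NASH minus NASH, of all 10953 protein-coding genes measured (histogram, genes per bin of 0.1) and of each of the 15 Ugt and 10 Sult genes (ticks), with dotted lines at 1.5-fold. Ugt ticks lie mostly left of the lower line (10 of 15) and Sult ticks mostly right of the upper line (7 of 10).

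**Figure D3:**
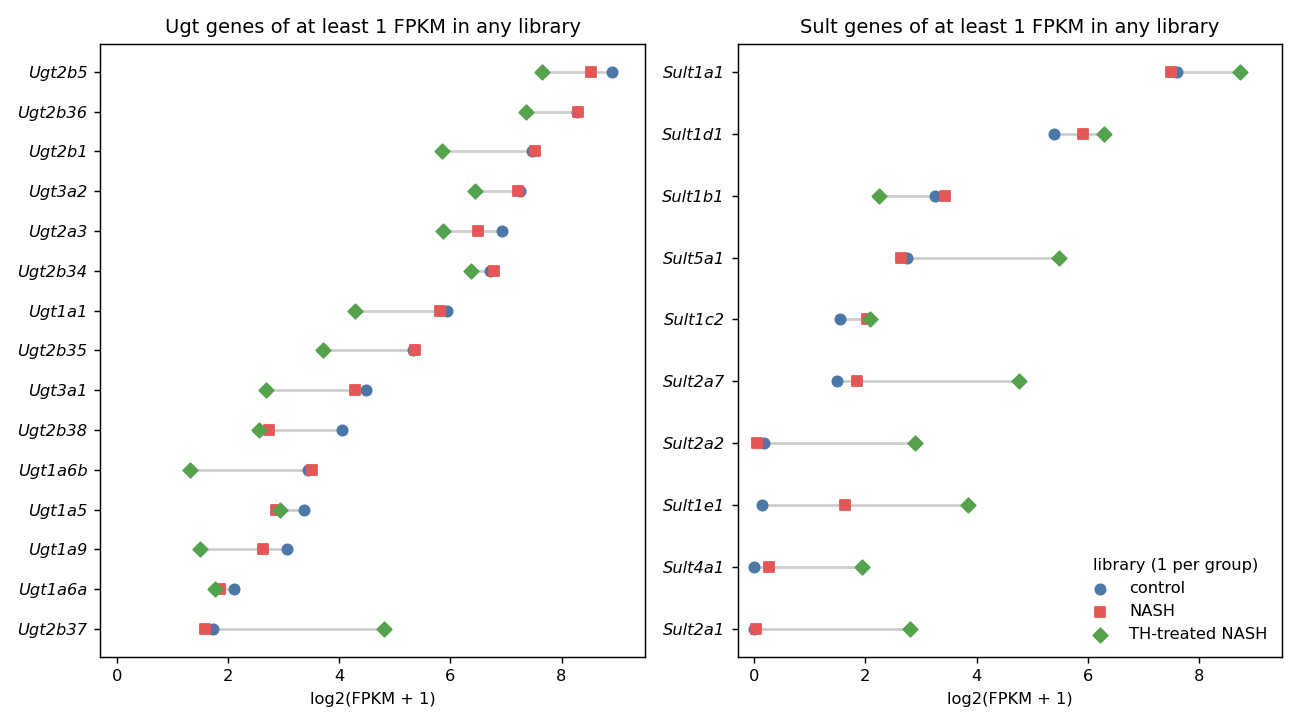
Level of each of the 25 members that reached 1 FPKM, as log2(FPKM + 1), in the control (circle), NASH (square) and TH-treated NASH (diamond) library, Ugt genes left and Sult genes right. Control and NASH symbols lie close together for most genes, while the diamond lies to the left for most Ugt genes and to the right for most Sult genes.

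Ugt1a genes share one locus on chromosome 1, from 88055388 to 88220002 on the plus strand, where each has its own first exon and all use the same later exons. Ugt1a1, the enzyme that conjugates bilirubin, stood at 60.7 FPKM in control, 55.5 in NASH and 18.5 in the TH-treated library. It was the most abundant of the subfamily in each library and was 3.0-fold lower (2.83 to 3.17) in TH-treated NASH than in NASH. Ugt1a6b, one of a pair of mouse genes for the enzyme of small planar phenols, stood at 9.80, 10.5 and 1.49 FPKM. At 7.05-fold lower (5.88 to 8.52), it had the largest ratio of the Ugt genes called lower. Its partner Ugt1a6a stood at 3.31, 2.64 and 2.41 FPKM, within 1.5-fold in all 3 comparisons. Of the 75-base windows of Ugt1a6a transcripts, 95.7% occur in another member, as do 74.8% of those of Ugt1a6b. The closest member to Ugt1a6a was Ugt1a7c, with 93.9% of its windows, and the closest to Ugt1a6b was Ugt1a6a, with 74.5%. Shared sequence thus limits the split among these genes. Ugt1a9, whose human counterpart conjugates bulky phenols, stood at 7.37, 5.22 and 1.82 FPKM and was 2.86-fold lower (2.39 to 3.45) in TH-treated NASH than in NASH. Ugt1a5 stood at 9.32 FPKM in control, 6.30 in NASH and 6.67 in the TH-treated library, within 1.5-fold throughout.

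Of the 5 Ugt1a genes measured, 3 were lower in TH-treated NASH than in NASH and 2 were within 1.5-fold. The whole subfamily summed to 90.7, 80.5 and 31.0 FPKM. Between 50.3% and 60.6% of the exonic bases of each gene belong to exons of another Ugt1a gene in GENCODE M21. Ugt1a8 had 1 fragment in control, none in NASH and 3 in TH-treated NASH, although 1318 of its 2227 exonic bases are shared, so fragments of the shared exons were not counted for every gene. Their assignment is not described in the labels. The gene length used for Ugt1a8, 2227 bases, includes the shared ones, so levels of Ugt1a genes may be understated against other genes. Gm20528, a noncoding transcript on the opposite strand, overlaps 922 of the 2224 exonic bases of Ugt1a1. It stood at 68.1 FPKM in control, 59.3 in NASH and 65.6 in the TH-treated library. The labels do not state whether counting used strand, and without it the fragments of Ugt1a1 and Gm20528 cannot be told apart.

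Among the Ugt1a promoters, those of Ugt1a9 and Ugt1a10 were the most alike, and are shown because their genes differed widely in level. Ugt1a9 is given above, and Ugt1a10 stood at 0.0653, 0.0758 and 0.0349 FPKM. The windows (250 bases before to 50 after the start, RefSeq, GRCm38.p6, plus strand) are chr1:88070529-88070828 and chr1:88055161-88055460. Aligned, they were identical at 71.2% of positions, against 46.5% to 55.2% for the other 27 pairs of Ugt1a promoters. Capitals mark the bases of Ugt1a10 that differ from Ugt1a9 or have no partner in the alignment.
Ugt1a9: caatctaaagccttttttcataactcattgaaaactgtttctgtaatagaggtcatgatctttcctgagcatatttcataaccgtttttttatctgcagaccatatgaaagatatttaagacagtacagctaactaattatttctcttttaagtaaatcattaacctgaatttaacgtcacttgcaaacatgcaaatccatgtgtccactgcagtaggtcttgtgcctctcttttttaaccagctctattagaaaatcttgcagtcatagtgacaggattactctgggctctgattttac
Ugt1a10: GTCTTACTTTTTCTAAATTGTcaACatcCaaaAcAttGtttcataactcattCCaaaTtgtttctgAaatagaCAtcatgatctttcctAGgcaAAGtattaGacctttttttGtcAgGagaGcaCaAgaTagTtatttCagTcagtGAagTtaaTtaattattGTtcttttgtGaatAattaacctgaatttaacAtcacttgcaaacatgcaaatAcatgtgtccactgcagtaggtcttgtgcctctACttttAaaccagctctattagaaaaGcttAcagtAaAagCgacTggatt

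The Ugt2 genes lie together on chromosome 5 with 3 Sult1 genes. The span from 86889767 to 87591611 holds 12 genes of the table, all of them members: 9 Ugt2 and 3 Sult1 genes. Ugt2b5, Ugt2b36 and Ugt2b1, steroid- and drug-conjugating enzymes of the liver, were the most abundant of the Ugt2b genes in control and NASH. Ugt2b5 stood at 479 FPKM in control, 370.3 in NASH and 201 in the TH-treated library, and was 1.84-fold lower (1.81 to 1.88) in TH-treated NASH than in NASH. It was the most abundant of all 38 members in control and NASH. Ugt2b36 stood at 308, 313 and 163 FPKM, 1.92-fold lower (1.88 to 1.96). Ugt2b1 stood at 175, 182 and 56.8 FPKM, 3.21-fold lower (3.11 to 3.30). For both, control and NASH were within 1.04-fold of each other.

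Ugt2b35, the gene of the cluster on the plus strand, stood at 39.3, 40.0 and 12.1 FPKM, 3.29-fold lower (3.05 to 3.56) in TH-treated NASH than in NASH. Ugt2b34 stood at 103, 109 and 81.5 FPKM, 1.34-fold lower (1.31 to 1.37) and so not called. Ugt2a3, whose human counterpart conjugates bile acids, stood at 121, 89.4 and 57.5 FPKM. It was 1.55-fold lower (1.5 to 1.61) in TH-treated NASH than in NASH and 2.10-fold lower (2.04 to 2.17) than in control. The 7 Ugt2b genes summed to 1123, 1022 and 546 FPKM.

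Ugt2b37 and Ugt2b38 stood apart from the other Ugt2 genes, Ugt2b37 with TH treatment and Ugt2b38 in NASH against control. Ugt2b37 stood at 2.30 FPKM in control, 1.99 in NASH and 26.9 in the TH-treated library. It was 13.5-fold higher (11.6 to 15.9) in TH-treated NASH than in NASH and 11.7-fold higher (10.2 to 13.4) than in control, the only Ugt gene called higher in any comparison. Ugt2b38 stood at 15.5 FPKM in control, 5.69 in NASH and 4.89 in the TH-treated library. It was 2.72-fold lower (2.46 to 3.02) in NASH than in control, and TH-treated NASH stayed near the NASH level, 1.16-fold lower (1.02 to 1.34).

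The promoters of Ugt2b37, Ugt2b38 and Ugt2b5 are shown because they were the most alike of the Ugt2 promoters while the levels of their genes went different ways. Aligned, Ugt2b37 and Ugt2b38 were identical at 87.3% of positions, Ugt2b38 and Ugt2b5 at 84.2%, and Ugt2b37 and Ugt2b5 at 76.5%, against 47.9% to 63.5% for the other 33 pairs. The windows (RefSeq, GRCm38.p6, minus strand) are chr5:87254739-87255038, chr5:87424154-87424453 and chr5:87140291-87140590. Capitals mark bases that differ from Ugt2b37 or have no partner in the alignment.
Ugt2b37: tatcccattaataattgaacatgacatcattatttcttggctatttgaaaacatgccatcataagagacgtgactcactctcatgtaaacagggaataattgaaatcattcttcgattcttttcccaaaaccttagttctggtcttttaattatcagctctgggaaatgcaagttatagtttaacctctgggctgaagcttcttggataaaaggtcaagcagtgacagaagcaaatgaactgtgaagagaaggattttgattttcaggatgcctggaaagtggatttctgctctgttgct
Ugt2b38: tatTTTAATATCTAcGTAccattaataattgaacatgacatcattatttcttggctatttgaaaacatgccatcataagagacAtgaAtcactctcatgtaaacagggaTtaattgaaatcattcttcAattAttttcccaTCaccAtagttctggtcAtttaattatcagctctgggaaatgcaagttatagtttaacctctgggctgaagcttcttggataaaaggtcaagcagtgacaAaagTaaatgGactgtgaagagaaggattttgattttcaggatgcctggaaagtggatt
Ugt2b5: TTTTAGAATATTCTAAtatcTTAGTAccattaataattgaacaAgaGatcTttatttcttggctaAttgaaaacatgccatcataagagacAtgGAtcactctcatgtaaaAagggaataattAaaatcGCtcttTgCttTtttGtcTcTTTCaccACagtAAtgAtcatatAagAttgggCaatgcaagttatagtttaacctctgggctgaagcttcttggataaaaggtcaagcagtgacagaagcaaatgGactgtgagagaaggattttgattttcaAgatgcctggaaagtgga
Transcripts of the genes overlap in part: 28.0% of the 75-base windows of Ugt2b38 and 30.4% of those of Ugt2b5 occur in another member, against 6.37% of those of Ugt2b37. Fragments from shared stretches could be assigned to either gene or counted for neither, which the labels do not describe.

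**Figure D4:**
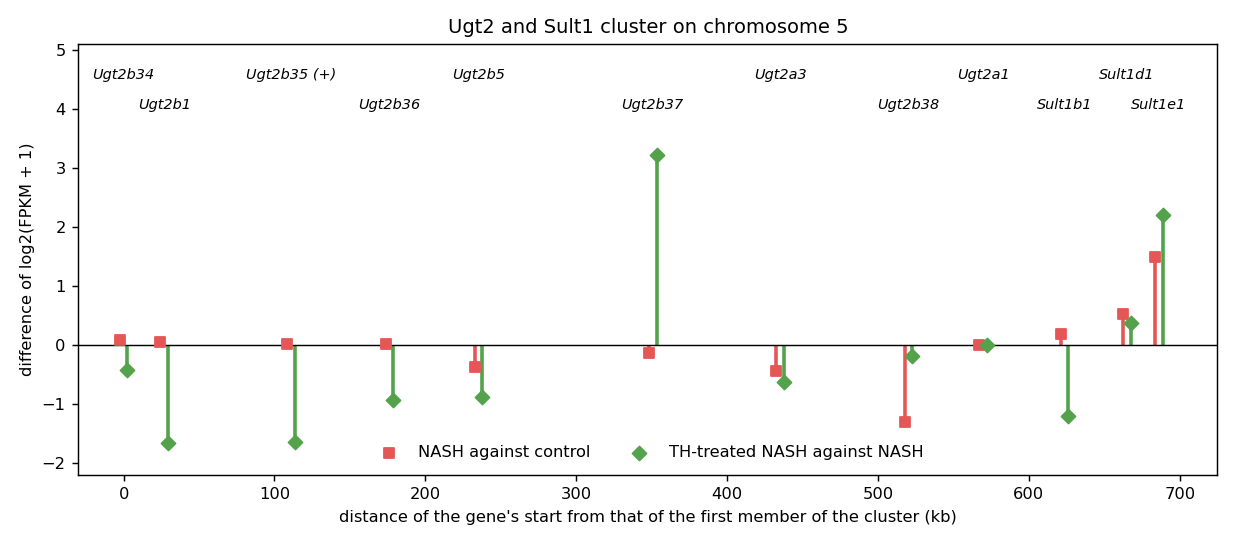
Difference in log2(FPKM + 1) of the 12 genes of the chromosome 5 cluster, placed by the distance of each gene's start from that of Ugt2b34 in kb; squares are NASH minus control and diamonds TH-treated NASH minus NASH, drawn slightly apart. Ugt2b37 stands at 3.22 for TH-treated NASH against NASH between neighbours below 0, and Ugt2b38 at -1.30 for NASH against control.

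A set of motifs was searched on both strands of the 32 member promoters that RefSeq gave. TTCNNNGAA, the STAT site, was in 2 of 32 (Sult3a1 and Ugt1a6a), against 8.30% of all 32851 promoters. GCGTG, the core of the site bound by the aryl hydrocarbon receptor, was in 5 of 32 (Sult1b1, Sult1d1, Sult2b1, Ugt1a5 and Ugt1a8), against 32.4%. TGACNNNGC, the core bound by NRF2, was in none, against 12.4% of all. The thyroid hormone receptor direct repeat spaced by 4 bases and the palindromic HNF1 site were in none, against 0.0152% and 0.00913% of all. Those shares are 5 and 3 promoters of 32851, too few for the absence from 32 to tell anything. A match or its absence describes only these letters in this window. Promoters of Sult2a1, Sult2a2, Sult2a7, Sult4a1, Ugt1a6b and Ugt3a2 were not matched.

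Ugt3a genes, on chromosome 15, encode enzymes whose human counterparts use other UDP-sugars than UDP-glucuronic acid. Ugt3a2 stood at 152 FPKM in control, 148 in NASH and 86.0 in the TH-treated library, 1.72-fold lower (1.67 to 1.76) in TH-treated NASH than in NASH. Ugt3a1 stood at 21.3, 18.5 and 5.44 FPKM, 3.40-fold lower (3.08 to 3.77). Both were also lower than in control, by 1.77-fold and 3.90-fold.

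Sult1a1, the phenol sulfotransferase, carried most of the level of the Sult members. Sult2a8, no member by name, stood above it in control and NASH, at 388 and 228 FPKM. Sult1a1 stood at 193 FPKM in control, 180.4 in NASH and 427 in the TH-treated library. It was 2.37-fold higher (2.31 to 2.42) in TH-treated NASH than in NASH. It made up 76.5%, 68.6% and 69.9% of the Sult members' FPKM and was the most abundant of all 38 members in TH-treated NASH, after ranking 3 in control and 4 in NASH. Its last 61 exonic bases on the minus strand overlap Ccdc101, which stayed between 11.1 and 14.5 FPKM.

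The other Sult1 genes went different ways. Sult1b1, which sulfates thyroid hormones, stood at 8.56 FPKM in control, 9.84 in NASH and 3.72 in the TH-treated library. It was the only Sult member called lower, by 2.65-fold (2.35 to 2.98) against NASH. Sult1d1, a sulfotransferase of catecholamines in mouse, stood at 41.0, 59.5 and 77.4 FPKM. Its steps were 1.45-fold (1.40 to 1.51) and 1.30-fold (1.26 to 1.35), each below the limit, and TH-treated NASH was 1.89-fold higher (1.82 to 1.96) than control. Sult1c2 stood at 1.92, 3.09 and 3.24 FPKM. Its ratio of NASH to control was 1.61 (1.33 to 1.95) but not called on the log2(FPKM + 1) scale.

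Sult1e1, at the far end of the chromosome 5 cluster, was the member with the largest step between control and NASH. It stood at 0.102 FPKM in control, on 7 fragments, at 2.11 in NASH and at 13.3 in TH-treated NASH. It was 20.7-fold higher (9.77 to 52.6) in NASH than in control and a further 6.32-fold higher (5.21 to 7.72) in TH-treated NASH than in NASH. TH-treated NASH was 131-fold higher (63.3 to 327) than control. Since control lay below 1 FPKM, the gene passed the filter only through the other libraries, at least 1 of which had to stand above control.

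Sult2a genes encode sulfotransferases of hydroxysteroids such as dehydroepiandrosterone and of bile acids, and lie on chromosome 7. The 7 members by name summed to 1.94 FPKM in control, 2.66 in NASH and 39.1 in the TH-treated library. That sum leaves out Sult2a8, which at 388, 228 and 218 FPKM stood above it in each library. Sult2a7 stood at 1.82, 2.61 and 26.0 FPKM and was 9.97-fold higher (8.17 to 12.3) in TH-treated NASH than in NASH. Sult2a1 had 0, 1 and 234 fragments, or 0, 0.0209 and 5.99 FPKM, and Sult2a2 had 5, 1 and 183 fragments, or 0.124, 0.0287 and 6.45 FPKM. Because each rests on 1 NASH fragment, the ratios of TH-treated NASH to NASH have wide intervals, 51.0 to 11391 for Sult2a1 and 39.8 to 8919 for Sult2a2. Against control, Sult2a1 was at least 111-fold higher, taking 3 fragments as the most control could hold unseen, and Sult2a2 52.1-fold higher (21.9 to 163). Sult2a5 had fragments only in TH-treated NASH, 24 of them at 0.599 FPKM, and Sult2a3 had 3.

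Sequence sharing limits the split among several Sult2a genes. Of the 75-base windows of Sult2a2 transcripts, 47.2% occur in another member, as do 25.6% for Sult2a5, 19.5% for Sult2a1 and 11.5% for Sult2a4. No window of Sult2a7 occurs in another member or in Sult2a8. Sult2a8, the neighbour of Sult2a7 on chromosome 7 at 14410686 to 14446769, was 1.70-fold lower (1.68 to 1.73) in NASH than in control. Between TH-treated NASH and NASH it differed by 1.05-fold (1.03 to 1.07), and in TH-treated NASH it was 1.78-fold lower (1.75 to 1.81) than in control.

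The remaining Sult genes measured stood highest in TH-treated NASH. Sult5a1 stood at 5.69 FPKM in control, 5.23 in NASH and 43.5 in the TH-treated library, 8.31-fold higher (7.33 to 9.45) than NASH, and after Sult1a1 and Sult1d1 it was the most abundant Sult member there. Sult4a1, known from brain, had no fragment in control and stood at 0.205 FPKM in NASH and 2.83 in TH-treated NASH. It was 13.8-fold higher (8.98 to 22.1) in TH-treated NASH than in NASH. Sult3a1, which sulfates amines, had 0, 3 and 26 fragments, or 0, 0.0610 and 0.648 FPKM, and did not pass the filter.

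**Figure D5:**
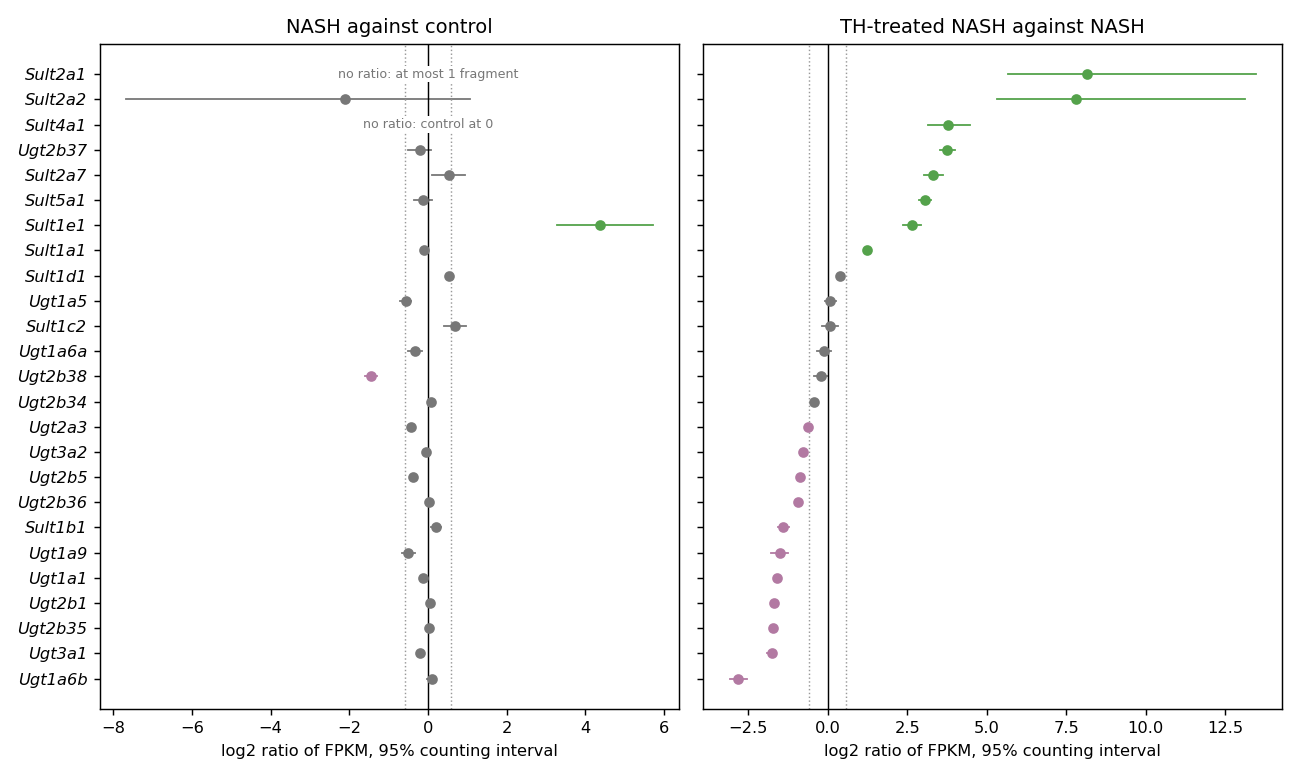
Log2 ratio of FPKM for the 25 members measured, NASH against control (left) and TH-treated NASH against NASH (right), with the exact 95% counting interval as a bar, dotted lines at 1.5-fold and separate horizontal scales. Green marks members called higher, purple lower and grey neither; 1 green and 1 purple point stand left, 8 green and 11 purple points right.

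Most genes that supply the sugar donor were also lower in TH-treated NASH. Of 5 genes of UDP-glucuronate supply, 3 were called lower and none higher against NASH, where 8.51% and 7.29% of all genes were. Ugdh, which oxidises UDP-glucose to UDP-glucuronic acid, stood at 60.9 FPKM in control, 46.9 in NASH and 12.7 in the TH-treated library, 3.68-fold lower (3.50 to 3.88). Ugp2, which makes UDP-glucose, stood at 131, 214 and 71.7 FPKM, 1.64-fold higher (1.61 to 1.67) in NASH than in control and 2.99-fold lower (2.92 to 3.07) in TH-treated NASH than in NASH. Slc35d1, a carrier of UDP-glucuronic acid into the endoplasmic reticulum, was 1.65-fold lower (1.59 to 1.72). The gene listed as Pgm1, a phosphoglucomutase, was the other called higher in NASH, 2.14-fold (1.76 to 2.59).

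For the sulfo donor, the counts lay near the background. Of 10 genes of PAPS and sulfate supply found, 1 was called higher (7.29% of all genes were) and 2 lower (8.51%) in TH-treated NASH against NASH, and none in NASH against control. Papss2, the main PAPS synthase of liver, stood at 41.7 FPKM in control, 44.7 in NASH and 107 in the TH-treated library, 2.38-fold higher (2.32 to 2.45) than NASH. Papss1, the other PAPS synthase, stood at 9.14, 7.51 and 3.46 FPKM, 2.17-fold lower (1.92 to 2.47). Suox, which oxidises sulfite to sulfate, was 1.80-fold lower (1.71 to 1.90). Of 6 genes listed for conjugate removal, 5 were found and Sts was not. The arylsulfatase genes Arsa and Arsb were lower in TH-treated NASH than in NASH, by 2.73-fold (2.56 to 2.92) and 1.68-fold (1.56 to 1.82). That is 2 of 5, where 8.51% of all genes were lower, and none was called in NASH against control. Whether Arsa and Arsb act on the products of Sult enzymes was not tested.

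Among 9 measured transporters that carry conjugates or take up their substrates, 5 were lower in TH-treated NASH than in NASH, against 8.51% of all genes, and none higher, against 7.29%. Abcc3, which exports glucuronides into blood, stood at 36.2 FPKM in control, 58.9 in NASH and 4.38 in the TH-treated library. It was 1.63-fold higher (1.59 to 1.67) in NASH than in control and 13.5-fold lower (12.5 to 14.4) in TH-treated NASH than in NASH. Abcg2, an exporter of sulfates at the bile canaliculus, was 1.57-fold higher (1.51 to 1.64) in NASH and 2.47-fold lower (2.34 to 2.60) in TH-treated NASH. The uptake carrier gene Slco1a4 was 2.76-fold lower (2.45 to 3.11) and Abcc2, the canalicular exporter of conjugates, 2.06-fold lower (2.02 to 2.11).

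Of 21 genes of regulators, 1 was higher and 7 lower in TH-treated NASH than in NASH, where 7.29% and 8.51% of all genes were. In NASH against control 3 were higher, near the 10.3% of all genes. Esr1, the estrogen receptor, stood at 2.73, 2.16 and 6.63 FPKM, 3.06-fold higher (2.79 to 3.36). Ppara, a receptor of fatty acids, was 2.49-fold lower (2.35 to 2.64) and Onecut1 2.42-fold lower (2.01 to 2.93). In NASH against control, Nr0b2 was 2.14-fold higher (1.98 to 2.32) and Nfe2l2, which encodes NRF2, 1.70-fold (1.63 to 1.78). Nr1i2 and Nr1i3, which encode the receptors PXR and CAR, and Ahr were within 1.5-fold in all 3 comparisons.

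Of 8 measured targets of these receptors, 3 were higher and 4 lower in TH-treated NASH than in NASH, where 7.29% and 8.51% of all genes were. Dio1, a target of thyroid hormone receptors, stood at 90.3, 129 and 429.7 FPKM, 3.32-fold higher (3.25 to 3.40), and Cyp4a14, a target of PPARA, was 4.33-fold higher (4.19 to 4.48). Thrsp, on the same list, was 1.24-fold higher (1.22 to 1.27) and not called. Gclc was 4.27-fold lower (4.09 to 4.47), Cyp3a11 4.08-fold lower (4.03 to 4.14) and Nqo1 3.67-fold lower (3.02 to 4.49). In NASH against control, Nqo1 was 2.85-fold higher (2.44 to 3.34), Thrsp 2.04-fold higher (2.0 to 2.08) and Cyp4a14 2.08-fold lower (2.01 to 2.16).

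Genes outside the families that differ between the sexes in mouse liver also differed between the libraries, and their part in the members' values was not tested. Of 12 female-biased genes measured, 9 were higher and none lower in TH-treated NASH than in NASH, where 7.29% and 8.51% of all genes were. Of the 12, 6 reached 1 FPKM in TH-treated NASH alone and so had to be higher there, and of the other 6, 3 were higher. The 14 listed summed to 7.73 FPKM in control, 11.3 in NASH and 210 in the TH-treated library. Cyp3a16 stood at 0, 0.0123 and 51.9 FPKM, and Cyp3a44 had no fragment in control or NASH and stood at 97.4 FPKM in TH-treated NASH. Cyp2a4 stood at 0.0640, 1.15 and 21.3 FPKM. Of 14 male-biased genes, 5 were higher and 5 lower in TH-treated NASH than in NASH, and 8 were lower and none higher in NASH than in control, where 2.15% and 10.3% of all genes were. In TH-treated NASH against control, 11 of the male-biased genes were lower and none higher, where 6.18% and 14.9% of all genes were. Their levels did not share 1 order: Cyp4a12a stood at 137, 104 and 1.26 FPKM and Mup20 at 7015, 10157 and 1177 FPKM, both lowest in TH-treated NASH. Serpina1e, at 6572, 431 and 2635 FPKM, and Moxd1, at 18.9, 0.441 and 7.25 FPKM, were lowest in NASH.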

How the data were processed

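Liver polyA RNA of 3 groups, 1 library each, was enriched on oligo(dT) beads and copied with random hexamers, per the labels' protocols. TopHat2 and HTSeq were used, per the submitters' processing notes; no version, setting, strand mode or genome build is given in the sources used here. The table as deposited holds FPKM made by the authors. Positions are printed as deposited.

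Fragments were recovered as FPKM times gene length, divided by the step that 1 fragment makes. All values (100%) were whole within 0.01 fragment. Members and gene lists were chosen with earlier results of these data known. With 1 library per group no test was run. Differences were taken as log2(FPKM + 1) over genes of at least 1 FPKM in any library. Fold intervals are exact 95% conditional binomial (Clopper-Pearson) and, like the floor of 3 counts for a library at 0, cover counting error only, since PCR copies are not independent molecules. Every member of at least 1 FPKM was named, and of each pathway list up to 4 members with the largest ratios among those called. Ahr, Nr1i2, Nr1i3, Gm20528 and Ccdc101, and the Thrsp ratio of TH-treated NASH to NASH, were added after their values were seen. Some list members that this rule covers are not reported here.

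Exons and transcripts came from GENCODE M21, which holds all 38 member IDs on the same chromosome, 28 with the same start and end. Promoters came from RefSeq (GRCm38.p6) for 32 of 38 members and were aligned pairwise. Python 3.11.15, numpy 2.4.6, pandas 2.3.3, scipy 1.17.1, matplotlib 3.10.9 and Biopython 1.88 were used, and the steps were tested on simulated data. Other pseudocounts, filters, scalings, thresholds and member sets were tried.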

Additional observations from a re-analysis of the deposited data

How the results depend on the processing

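Of 66 recomputed counts of members called, 58 stayed within 1.5 times the count reported and 8 did not. Among recomputed ratios of summed FPKM, 28 stayed within the counting interval of the reported ratio and 45 did not. None of the settings turned the direction of a called value. For NASH against control, members called higher (1 as reported) numbered 3 with a pseudocount of 0.1 FPKM, 0 with one of 5 FPKM, and 2 when the counting interval had to lie past 1.5-fold. Members called lower (1 as reported) numbered 2 with a pseudocount of 0.1 FPKM, 5 with median-of-ratios scaling, 3 with TMM scaling, and 2 with the sulfotransferase genes under older symbols added, a setting chosen after seeing the data. For TH-treated NASH against NASH, members called lower (11 as reported) numbered 7 from 2-fold. In NASH against control, the sum of all Ugt genes, 0.901 times control as deposited, was 0.775 with median-of-ratios and 0.796 with TMM scaling. The sum of all Sult genes, 1.05 times control as deposited, was 0.899 times control with median-of-ratios scaling and 0.923 with TMM scaling. It was 0.768 with the older symbols added. The sign of the difference also turned with median-of-ratios and TMM scaling for Ugt1a6b, Ugt2b1, Ugt2b34, Ugt2b35 and Ugt2b36 in that comparison, none of them called. The summed Sult3a ratio against control was not given, since control held no fragment. No paired analysis was possible because each group is 1 library. Depth limits Sult2a1, Sult2a2, Sult3a1 and the control level of Sult1e1, which rest on 7 fragments or fewer in control or NASH.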
